A study of Mus musculus with 13 samples.

Results

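The 40 genes described here run the last part of the cell cycle: the cyclins and the kinase that start mitosis, the kinases and checkpoint proteins that hold cells until every chromosome is attached, the kinetochore, the motors and bundling proteins of the spindle, the ubiquitin machinery that starts anaphase, and the scaffold that divides the cell. They were chosen by name as a fixed list, and all 40 of 40 were found among the 13222 genes of the deposited table. The 4T1-Thy1.1 line, a mouse mammary carcinoma line that carries the Thy1.1 surface marker, was sequenced from the 3′ end of its transcripts after 48 hours in culture. The control group had neither agent (replicates 1, 3 and 5), the DOX group received 200 ng/mL doxorubicin (replicates 1, 2, 3 and 4), the IL-17A group received 25 ng/mL of the cytokine (replicates 2, 3 and 5), and the DOX+IL-17A group received both (replicates 2, 3 and 5). All 13 libraries came from this 1 cultured line, with no tumour stroma, and the labels do not say whether replicates were separate cultures, so the p-values below measure only the spread between these libraries.

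As cells pass from S phase to mitosis, cyclin A and cyclin B accumulate and bind Cdk1, which the Cdc25 phosphatases switch on. The spindle assembly checkpoint (Bub1, BubR1, Bub3, Mad2 and Mps1) then blocks Cdc20 and the anaphase-promoting complex until kinetochores are attached, while the chromosomal passenger complex (Aurora B, INCENP, survivin and borealin) corrects faulty attachments. After the block is lifted, securin and the cyclins are destroyed, and centralspindlin and anillin guide the cleavage furrow. Doxorubicin is a topoisomerase II poison that breaks DNA, and IL-17A is an inflammatory cytokine made mainly by T cells. The design lets the effect of each agent on these genes, and of IL-17A on cells given DOX, be compared.

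Many of these genes are known to be expressed late in the cell cycle through a cell cycle homology region (CHR) and CCAAT boxes near the start of transcription, which are bound by MuvB complexes and by NF-Y. Promoter windows of 300 bases (RefSeq, GRCm38.p6, 250 before to 50 after the start) were at hand for 33 of the 40 genes, in 36 windows because 3 genes had more than 1 window. The letters TTTGAA or TTCGAA (CHR), searched on both strands, stood in the windows of 26 of the 33 genes, and in 29 of 36 windows (80.6%) against 19.2% of all 32851 windows in the table and 13.8% of the 12028 windows of genes tested here. CCAAT, searched the same way, stood in 77.8% of the member windows against 37.4% of all windows and 38.2% of those of tested genes. Both motifs together stood in 72.2% of member windows and in 7.52% of all windows. The matches clustered by position. A CHR match with its middle within 50 bases of the start was found in 75% of member windows and 5.42% of all windows, a range that was set after the positions were seen. Of the related lists, replication licensing and S phase genes held a CHR match in 16.7% of 30 windows and CCAAT in 66.7%, inner kinetochore genes in 31.8% and 72.7% of 22 windows, and outer kinetochore and checkpoint genes in 50% each of 18. These shares describe letters in a window and no binding.

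**Figure D1:**
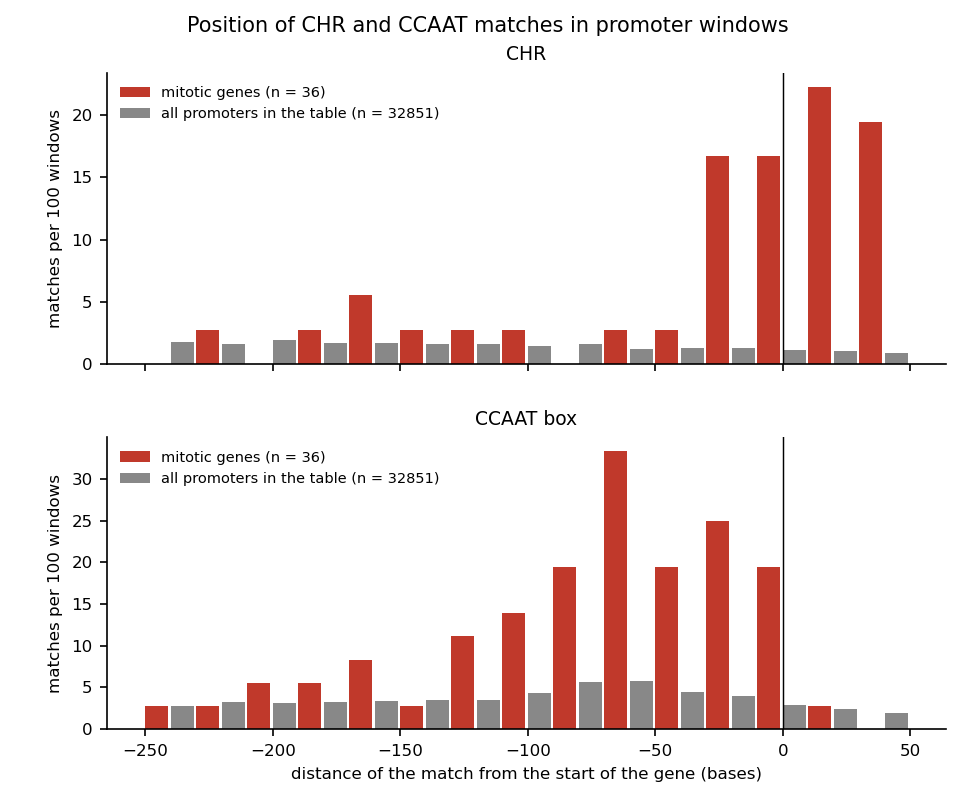
Position of CHR and CCAAT matches (both strands) in promoter windows, as matches per 100 windows (y axis) against the distance of the match from the gene's start in bases (x axis, bins of 20 bases). Red bars are the 36 windows of the mitotic genes and grey bars all 32851 windows. The red CHR bars rise around the start and the red CCAAT bars in the 150 bases before it, while the grey bars stay low.

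The windows of the 4 members with the largest differences between DOX and control that had a window are printed. All 4 had a higher mean in DOX, but Cenpa and Cdk1 did not reach an adjusted p under 0.05 in the fit described below. Aurkb, with a difference of similar size, had no window. Without control replicate 1 the log2 differences of Cenpa and Aurkb were 0.19 and 0.29. The first and the third carry the motifs and the second and the fourth do not. Capitals mark every CHR and CCAAT match on either strand (for CHR the letters TTTGAA, seen as TTCAAA on the other strand, or the palindrome TTCGAA, and for the CCAAT box CCAAT, seen as ATTGG on the other strand), and no match overlaps another.
Cenpa (chr5:30666636-30666935, plus strand): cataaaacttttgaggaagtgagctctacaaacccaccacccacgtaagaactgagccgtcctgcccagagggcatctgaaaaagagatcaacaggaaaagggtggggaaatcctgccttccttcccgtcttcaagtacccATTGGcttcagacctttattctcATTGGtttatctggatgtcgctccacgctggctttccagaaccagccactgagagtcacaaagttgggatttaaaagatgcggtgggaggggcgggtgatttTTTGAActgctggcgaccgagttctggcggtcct
Mad2l1 (chr6:66534971-66535270, plus strand): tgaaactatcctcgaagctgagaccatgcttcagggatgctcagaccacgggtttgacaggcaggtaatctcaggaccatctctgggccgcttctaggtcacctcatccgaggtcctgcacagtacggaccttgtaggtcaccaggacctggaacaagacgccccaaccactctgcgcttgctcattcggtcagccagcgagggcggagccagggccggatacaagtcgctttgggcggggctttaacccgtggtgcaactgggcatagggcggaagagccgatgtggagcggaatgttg
Cdk1 (chr10:69352863-69353162, minus strand): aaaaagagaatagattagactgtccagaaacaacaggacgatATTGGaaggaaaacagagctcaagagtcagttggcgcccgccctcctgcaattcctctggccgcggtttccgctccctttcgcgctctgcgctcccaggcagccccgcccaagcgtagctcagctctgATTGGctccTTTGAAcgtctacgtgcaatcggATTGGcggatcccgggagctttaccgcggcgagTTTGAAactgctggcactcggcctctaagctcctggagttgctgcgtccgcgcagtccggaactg
Birc5 (chr11:117848987-117849286, plus strand): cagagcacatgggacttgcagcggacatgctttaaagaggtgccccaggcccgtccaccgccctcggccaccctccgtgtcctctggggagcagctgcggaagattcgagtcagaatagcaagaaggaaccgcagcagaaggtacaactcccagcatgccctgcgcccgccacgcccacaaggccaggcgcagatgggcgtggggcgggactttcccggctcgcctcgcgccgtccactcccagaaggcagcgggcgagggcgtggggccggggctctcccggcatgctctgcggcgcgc
The absence of a match says only that these letters are not in this window. The Mad2l1 window ends at base 66535270, before the start of that gene in GENCODE (66535390), so the bases around the GENCODE start were not searched. The 7 genes with a window but no CHR match (Ccnb1, Mad2l1, Cenpe, Nuf2, Birc5, Nusap1 and Pttg1) had a median log2 difference of 0.63 in DOX against control, and the 26 genes with a match 0.27. Control replicate 1 is included in both medians, which are a description without a test.

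Values below are the deposited CPM after trimmed-mean (TMM) scaling, called normalised CPM, the reads of a gene relative to the size of its library. Each read comes from the 3′ end of a transcript, so no correction for length was made and levels are compared within a gene. Differences are on the log2(value + 1) scale ± standard error from a limma fit over all 13 libraries, with Benjamini-Hochberg adjusted p-values over 12319 tested genes, and a gene was called where the adjusted p was under 0.05 and the change above 2-fold. All 40 members passed the filter on low values. Gene positions are the annotated ends in GENCODE (mm10). The libraries held 4445592 to 16930600 reads on the listed genes, and the least-read member value was 11 reads (Aurkb in control replicate 1). In bulk RNA, fewer cells in mitosis and less RNA per cell cannot be told apart.

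There were 3 libraries that stood apart and bear on every result below. Replicates of a group were compared by a chi-square of their reads over genes, per degree of freedom: control replicate 1 differed from replicates 3 and 5 by 177 and 116 while those differed by 24.8 from each other. IL-17A replicate 5 differed from its group by 94.7 and 62.3, against 16.1 between the other libraries, and DOX+IL-17A replicate 5 by 58.0 and 55.3, against 19.9. Both were also the deepest libraries of their groups (13771197 and 16152120 reads), while control replicate 1 was the shallowest of its group (6583757). The part of depth in these distances was not tested. The 4 DOX libraries differed by 7.65 to 28.6. Control replicate 1 was the lowest of all 13 libraries for 21 of the 40 members and the highest for 3. The share of all tested genes for which it was lowest was not computed, so the count cannot be read as particular to these members. Its mean log2 value over the members was 6.47, against 7.17 and 6.97 in the other controls, 7.12 to 7.27 in DOX, 7.13 to 7.20 in DOX+IL-17A and 6.99 to 7.23 in IL-17A. Marker lists of cell types also moved with the treatment. The 9 markers of mammary carcinoma and epithelial cells, which include Thy1, were present in every library. Their summed level was 2099 to 2612 in control, 1873 to 2275 in IL-17A, 1112 to 1228 in DOX and 993 to 1245 in DOX+IL-17A. In DOX against control 9 of 9 were lower (median log2 difference -0.69) and 2 were called down, against 6.18% of all tested genes. Of 10 immune markers 6 were listed and 5 tested. Their summed level was 19.9 to 21.7 in control, 14.1 to 21.5 in IL-17A, 26.0 to 70.3 in DOX and 38.8 to 63.8 in DOX+IL-17A. In DOX against control 5 of 5 were higher (median 1.25) and 1 was called up, against 9.15% of all tested genes. In DOX+IL-17A against control 4 were higher and 1 was lower (-1.19), and 3 of 5 were called up, against 6.95% of all tested genes. Ptprc, which marks all white blood cells, was at most 3.57. Summed fibroblast markers were highest in control replicate 1 (143, other libraries 27.9 to 78.1). Summed muscle markers were highest in DOX replicate 1 (269, other libraries 4.56 to 39.2). The part of these markers in the results was not tested.

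**Figure D2:**
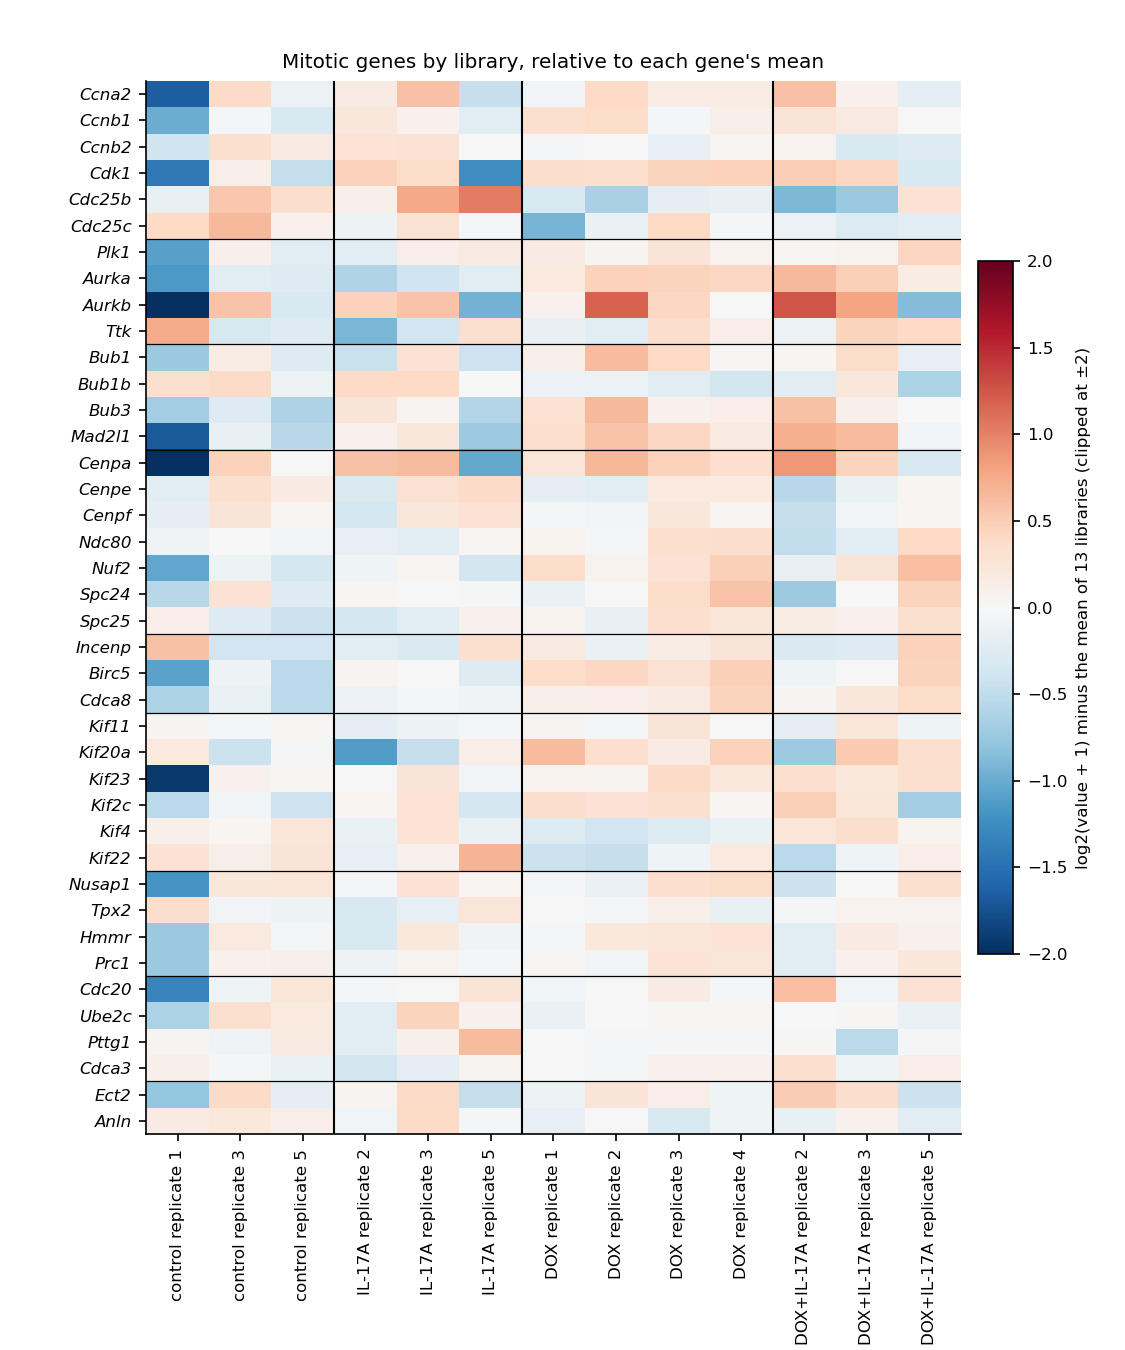
Heat map of the 40 mitotic genes (rows, grouped by role and separated by thin lines) in the 13 libraries (columns, grouped by treatment), as log2(value + 1) minus the gene's mean over the libraries, clipped at ±2. Control replicate 1 is dark blue for Cenpa, Aurkb, Kif23, Mad2l1, Ccna2 and Cdk1, and IL-17A replicate 5 is blue for Cenpa, Cdk1, Aurkb and Mad2l1.

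DOX against control asks how the drug moved these genes. With all 13 libraries, 1 of the 40 members was called, Mad2l1, which rose, and none fell. Over all tested genes 9.15% were called up and 6.18% down, so the members' share (1 of 40) was not above the background. By adjusted p alone 6 members rose and 0 fell (background 12.4% up and 9.71% down): Birc5, Aurka, Cdca8, Mad2l1, Bub3 and Nuf2. Values were higher in DOX for 29 members and lower for 11, with a median log2 difference of 0.33 against 0.09 over all genes, and 8 members had every DOX library above every control library (background 18.5%) and 4 every DOX library below (15.2%). Without control replicate 1 none was called, 4 rose by adjusted p alone and the median was 0.11. The count of calls was also 0 without DOX replicate 2, 2 without control replicate 5 or IL-17A replicate 5, and 8 without control replicate 3. Scaled by library size alone, 3 were called and the median was 0.51 against 0.24 over all genes.

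Among the cyclins, Cdk1 and its phosphatases, none was called. Cdk1 (mm10 chr10:69335146-69352938), the kinase that drives entry into mitosis, was at 109.8, 322 and 213 in control replicates 1, 3 and 5 and at 381, 378, 408 and 409.6 in DOX replicates 1 to 4. The lowest DOX library exceeded the highest control. The log2 difference was 1.0 ± 0.39 (adjusted p = 0.0748) and 0.59 without control replicate 1 (adjusted p = 0.260). Ccna2, cyclin A2, which acts in S phase and early mitosis, was at 34.2, 143 and 101 in control and 105, 145, 121 and 121 in DOX. Its control range contained 3 of the 4 DOX values, and its difference of 0.62 ± 0.38 became 0.02 without control replicate 1. Cdc25b (chr2:131186949-131198497), a phosphatase that activates Cdk1, went the other way, at 84.8, 137 and 120.2 in control and 75.8, 59.8, 82.9 and 84.7 in DOX. All 4 DOX libraries lay below the 3 controls, the highest DOX value only just, with a difference of -0.57 ± 0.29 (adjusted p = 0.177). Ccnb1 (0.63 ± 0.22, adjusted p = 0.0505), Ccnb2 (-0.06 ± 0.20) and Cdc25c (-0.55 ± 0.31) did not pass.

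Of the 4 mitotic kinases, Aurka passed by adjusted p alone. Aurka (chr2:172356190-172370535), Aurora A, which matures centrosomes and builds the spindle poles, was at 35.4, 67.6 and 66.5 in control and 91.1, 109.7, 109 and 107 in DOX. No library of the groups overlapped. It rose by 0.92 ± 0.23 (adjusted p = 0.0112), and by 0.62 without control replicate 1 (adjusted p = 0.0301). Aurkb, the kinase of the chromosomal passenger complex, had one of the largest differences, 1.39 ± 0.71 (adjusted p = 0.171), but rested on 1 library. It was at 1.86, 37.3 and 20.04 in control and 26.5, 57.8, 33.7 and 24.7 in DOX, and without control replicate 1 the difference was 0.29. Plk1, which acts at centrosomes, kinetochores and the furrow, was at 135, 311 and 249 in control and 325, 299.99, 346 and 304 in DOX, a difference of 0.54 ± 0.24 (adjusted p = 0.118) with overlapping groups. Ttk, the Mps1 checkpoint kinase, was at 206, 98.2 and 103 in control and 111, 105, 158 and 134 in DOX. Control replicate 1 was the highest of the 13 libraries here, the reverse of its place for Aurkb, and the difference was -0.03 ± 0.30.

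The spindle assembly checkpoint held the called gene. Mad2l1 (chr6:66535390-66547220), the Mad2 protein that inhibits Cdc20 at unattached kinetochores, was at 16.4, 49.01 and 36.8 in control and 69.3, 81.8, 73.1 and 61.97 in DOX. Each DOX library was above each control library, and it rose by 1.17 ± 0.33 (adjusted p = 0.0201). Without control replicate 1 the difference was 0.73 (adjusted p = 0.0677), under 2-fold and not called, and without DOX replicate 2 it was 1.11 (adjusted p = 0.0521). Bub3 (chr7:131560222-131571895), which docks the checkpoint kinases at kinetochores, was at 92.2, 125 and 97.5 in control and 184, 235, 159 and 163 in DOX with no overlap. It rose by 0.81 ± 0.23 (adjusted p = 0.0220, 0.0444 without control replicate 1). Bub1b, the BubR1 protein of the same complex, was at 75.1, 78.5 and 55.3 in control and 55.1, 54.9, 51.3 and 46.2 in DOX. Its 4 DOX libraries were all below the controls, the highest of them by a small margin, and the difference of -0.40 ± 0.23 did not pass (adjusted p = 0.208). Bub1 had 0.58 ± 0.26 (adjusted p = 0.116).

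At the centromere and kinetochore, Cenpa and Nuf2 differed most. Cenpa, the histone H3 variant that marks the centromere, was at 14.2, 224 and 164 in control and 192, 258, 224 and 205 in DOX. Control replicates 3 and 5 lay within and below the DOX range and replicate 1 far below it, so the largest difference of the list, 1.41 ± 0.68 (adjusted p = 0.144), was 0.19 without that library. Nuf2 (chr1:169497934-169531464), a rod of the Ndc80 complex that holds microtubules, was at 34.004, 66.2 and 55.4 in control and 91.9, 74.4, 87.4 and 99.7 in DOX. The groups did not overlap, and it rose by 0.80 ± 0.25 (adjusted p = 0.0291), with an adjusted p of 0.0989 without control replicate 1. Its partners moved less. Ndc80 was at 140.2, 149 and 143 in control and 156, 145, 188 and 189 in DOX (0.23 ± 0.21), Spc24 at 49.9, 91.1 and 61.6 and 67.9, 74.4, 95.6 and 110.4 (0.38 ± 0.28), and Spc25 differed by 0.30 ± 0.20. Cenpf, a large outer kinetochore protein, was at 737, 1008 and 865 in control and 826, 807, 984 and 861 in DOX, a difference of 0.01 ± 0.21. The motor Cenpe had -0.09 ± 0.23.

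Of the 3 chromosomal passenger members, Birc5 and Cdca8 passed by adjusted p alone. Birc5 (chr11:117849251-117855743), survivin, which brings the complex to centromeres and is also studied as an inhibitor of cell death, was at 188, 365 and 269 in control and 508, 528, 486 and 549 in DOX. The lowest DOX library lay well above the highest control. It rose by 0.97 ± 0.22 (adjusted p = 0.00608), the smallest adjusted p of the 40, and by 0.72 without control replicate 1 (adjusted p = 0.0130). Cdca8 (chr4:124918465-124939311), borealin, was at 126, 178 and 135 in control and 212, 214, 223 and 266 in DOX, again without overlap, and rose by 0.65 ± 0.18 (adjusted p = 0.0158, 0.0328 without control replicate 1). Incenp, the scaffold that joins them to Aurora B, was at 488, 249 and 248 in control and 370.3, 296, 362 and 389.96 in DOX. Control replicate 1 was its highest library of all 13, and the difference was 0.18 ± 0.26.

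**Figure D3:**
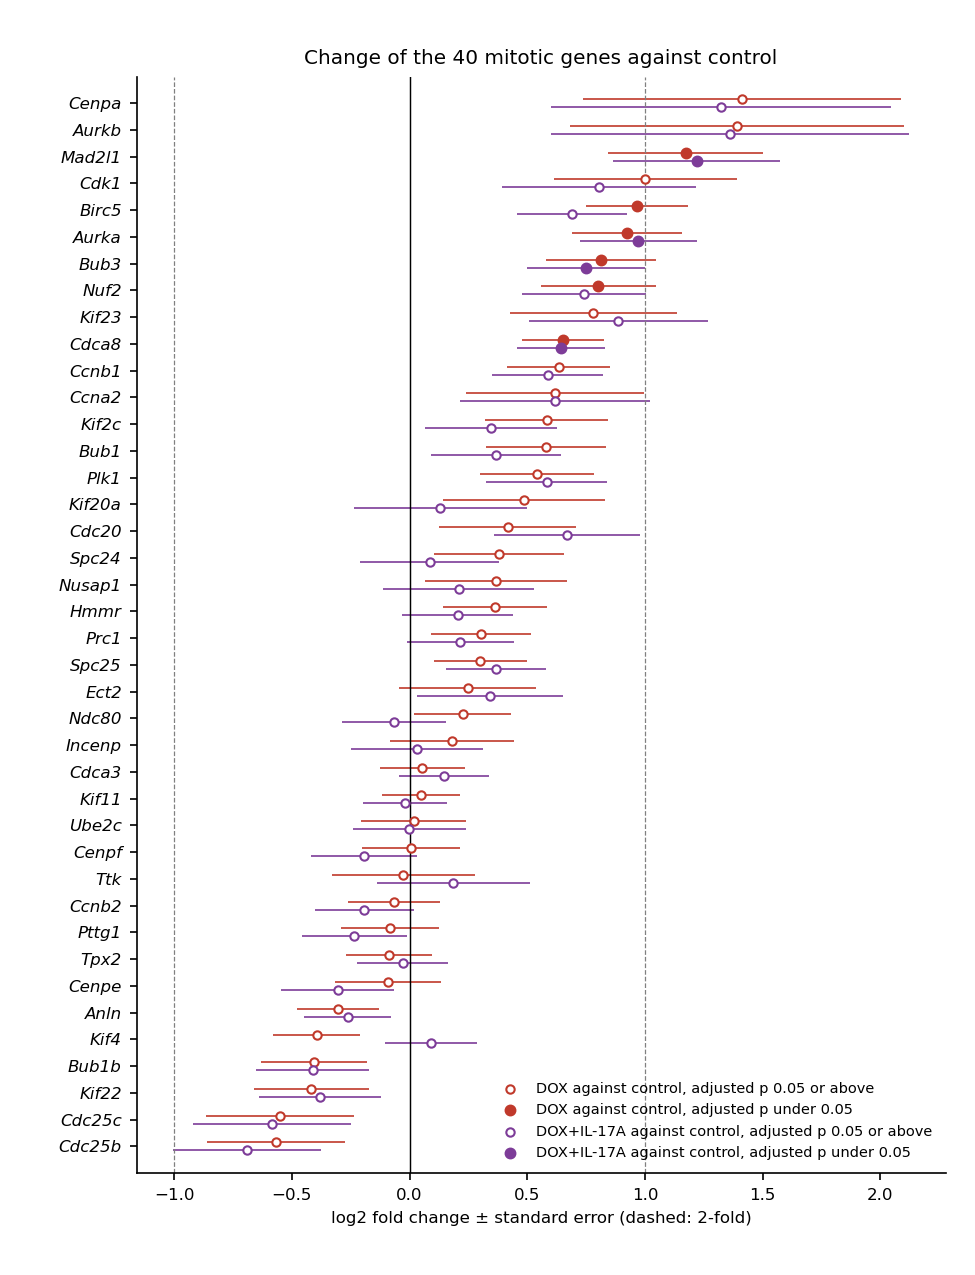
Log2 fold change ± standard error (x axis) of the 40 mitotic genes (y axis, ordered by the DOX value) for DOX (red) and DOX+IL-17A (purple) against control, with filled points at an adjusted p under 0.05 and dashed lines at 2-fold. Cenpa and Aurkb lie farthest to the right with the widest bars and open points, while Birc5, Aurka, Cdca8, Mad2l1, Bub3 and Nuf2 have filled red points.

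None of the motors, spindle proteins, anaphase genes or cytokinesis genes passed. Kif23, the centralspindlin motor, was at 58.03, 239.5 and 232 in control and 237, 232, 293 and 261 in DOX. Only control replicate 1 was far from the rest, and the difference of 0.78 ± 0.35 became 0.11 without it. Kif20a, which carries the passenger complex to the midzone, was at 22.3, 14.1 and 18.9 in control and 30.5, 24.6, 21.8 and 26.8 in DOX (0.49 ± 0.34). Kif4, a chromosome motor that sets the length of the midzone, was at 64.8, 62.5 and 71.9 in control and 49.7, 46.1, 50.1 and 55.1 in DOX. The DOX libraries were all lower, and the difference of -0.40 ± 0.18 did not pass (adjusted p = 0.132). Kif2c (0.58 ± 0.26), Kif22 (-0.42 ± 0.24) and Kif11 (0.05 ± 0.17) did not pass either.

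Nusap1, a microtubule bundler, was at 175, 466 and 472 in control and 388, 364, 502 and 513 in DOX (0.37 ± 0.30), and Hmmr (0.36 ± 0.22), Prc1 (0.30 ± 0.21) and Tpx2 (-0.09 ± 0.18) had smaller differences. Of the anaphase genes, Cdc20, the activator the checkpoint blocks, was at 35.02, 83.7 and 105 in control and 86.04, 89.8, 100.1 and 86.9 in DOX (0.42 ± 0.29). Pttg1, securin, was at 419, 387 and 457 in control and 402, 393, 399.6 and 393 in DOX, and its difference was -0.08 ± 0.21. The 4 DOX values for securin spanned only 393 to 402 CPM. Ube2c (0.02 ± 0.22) and Cdca3 (0.05 ± 0.18) were near zero. Anln, anillin of the contractile ring, was at 291, 302 and 286 in control and 233, 262, 211 and 246 in DOX. All 4 DOX libraries were below the controls, with a difference of -0.30 ± 0.17 (adjusted p = 0.217). Ect2, the exchange factor that activates RhoA at the furrow, had 0.25 ± 0.29.

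Leaving out control replicate 1 moved some members far more than others. The differences of Cenpa, Aurkb, Kif23, Ccna2 and Plk1 came down to 0.19, 0.29, 0.11, 0.02 and 0.19, whereas those of Bub3, Cdca8 and Birc5 were 0.73, 0.56 and 0.72. Aurka and Birc5 had an adjusted p under 0.05 in all 24 alternative fits (highest 0.0333 and 0.0272), Cdca8 and Mad2l1 in 21 each, Bub3 in 20 and Nuf2 in 17. Without control replicate 3 the picture went the other way, with 8 members called and 13 up by adjusted p alone. Control replicate 1, IL-17A replicate 5 and DOX+IL-17A replicate 5 were then left out together, a choice made after seeing the data. With them left out no member was called in DOX against control, 9 rose and 1 fell by adjusted p alone, and the members that passed in the full fit all passed again, joined by Cdk1 (0.59, adjusted p = 0.00839), Incenp (0.50, 0.0127) and Spc25 (0.46, 0.0462) upward and Cdc25b (-0.76, 0.00727) downward. These libraries were picked for their distance from their groups, so the spread in that fit is smaller by construction. The control, IL-17A and DOX+IL-17A groups each lack a library in it. The same limits hold for every value given below without these libraries, and its small adjusted p-values are no added support.

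**Figure D4:**
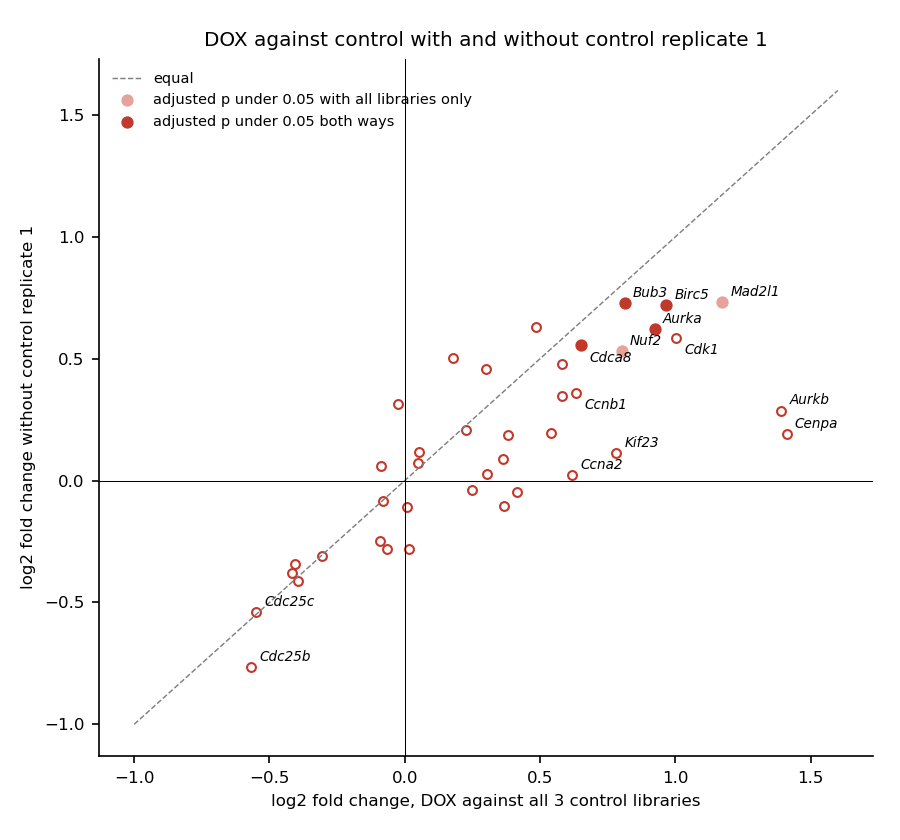
Log2 fold change of the 40 members in DOX against control with all 3 control libraries (x axis) and without control replicate 1 (y axis), with a dashed line of equality. Filled red points had an adjusted p under 0.05 both ways (Birc5, Aurka, Cdca8, Bub3) and pale points with all libraries only (Mad2l1, Nuf2). Cenpa and Aurkb fall from above 1 to near 0.

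Some members deviated the same way in the 3 libraries that stood apart. Taken singly, control replicate 1 was lowest of its group for 27 members and highest for 8. IL-17A replicate 5 was lowest for 15 and highest for 16, and DOX+IL-17A replicate 5 for 15 and 15. The share of such genes over all tested genes was not computed. Of the 40 members, Ccna2, Ccnb1, Cdk1, Aurkb, Bub3, Mad2l1, Cenpa, Kif2c and Ect2 were lowest in their group in all 3 of them (9 genes), and Spc25, Incenp, Kif22 and Tpx2 were highest (4 genes). Across the 40 members, deviations from the group mean had a Pearson r of 0.72 between control replicate 1 and IL-17A replicate 5, 0.52 between control replicate 1 and DOX+IL-17A replicate 5 and 0.75 between the latter and IL-17A replicate 5. Genes are not independent replicates, and over the 63 pairs of libraries from different groups r ran from -0.83 to 0.77. The highest r was between DOX+IL-17A replicate 5 and DOX replicate 4, which did not stand apart, so such an r is not particular to the 3 libraries. Cenpa was 1 of the 9 genes lowest in all 3. It was at 14.2, 224 and 164 in control replicates 1, 3 and 5 and 244, 253 and 79.002 in IL-17A replicates 2, 3 and 5. In DOX+IL-17A replicates 2, 3 and 5 it was at 298, 222 and 132. The library apart was lowest in each group, and the 4 DOX libraries spanned less. What set these libraries apart was not tested.

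DOX+IL-17A against control shares its control libraries with the comparison above. Again Mad2l1 alone was called, with 1 of 40 up (background 6.95%) and 0 down (5.95%). By adjusted p alone 4 rose and 0 fell (background 9.37% and 8.34%): Aurka, Mad2l1, Cdca8 and Bub3. The median was 0.21 against 0.04 over all genes, 27 members were higher and 13 lower, and 7 lay wholly above (background 15.6%) and 2 wholly below the controls (14.5%). Mad2l1 was at 89.6, 84.9 and 52.4 in DOX+IL-17A replicates 2, 3 and 5. All were above the highest control, replicate 5 by little, and it rose by 1.22 ± 0.35 (adjusted p = 0.0273). Without control replicate 1 it had 0.78 (adjusted p = 0.0666), without DOX+IL-17A replicate 2 an adjusted p of 0.0974 and without replicate 3 of that group 0.0938, and without the 3 libraries 1.02 (adjusted p = 0.00168).

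Aurka was at 126, 111 and 88.3 in DOX+IL-17A, all above the controls, and rose by 0.97 ± 0.25 (adjusted p = 0.0152, 0.0287 without control replicate 1). Cdca8 was at 202, 228 and 252 and rose by 0.64 ± 0.19 (adjusted p = 0.0278). Bub3 was at 224, 160.4 and 149.9 and rose by 0.75 ± 0.25, only just past the threshold (adjusted p = 0.0493). None of these groups overlapped with control. With each of the 13 libraries left out in turn, the adjusted p stayed under 0.05 in 12 fits for Aurka, in 10 for Cdca8 and for Mad2l1, and in only 3 for Bub3, whose highest value over all 24 alternatives was 0.179. With a replicate block none of the 4 passed, with adjusted p-values by limma of 0.0538 for Aurka, 0.0586 for Cdca8, 0.0665 for Mad2l1 and 0.0948 for Bub3. Birc5, at 371, 393 and 534, missed the threshold (0.69 ± 0.23, adjusted p = 0.0511). Aurkb, at 60.9, 43.6 and 13.2, and Cenpa had differences of 1.36 ± 0.76 and 1.32 ± 0.72 with adjusted p-values of 0.229 and 0.218, and 0.26 and 0.10 without control replicate 1. Kif23 was at 284, 259 and 281 (0.89 ± 0.38) and Cdk1 at 422, 399 and 241 (0.80 ± 0.41). With the 3 libraries left out, Cdc25b was called down in this comparison (-1.26, adjusted p = 0.00069). In the full fit it had -0.69 ± 0.31 (adjusted p = 0.142).

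DOX+IL-17A against IL-17A gives the effect of the drug where both groups had the cytokine. No control library enters either mean, but all 13 libraries share 1 estimate of the spread, so the controls bear on its p-values. Without control replicate 1 the smallest adjusted p of a member by limma was 0.00446, against 0.0342 with all libraries. With all 13 libraries none was called up (background 4.92%) and 1 was called down, Cdc25b (4.92%). By adjusted p alone 1 rose, Aurka (background 6.51%), and 1 fell, Cdc25b (6.75%). The median was 0.11 against 0.02 over all genes. In all, 3 members lay wholly above (background 16.4%) and 1 wholly below (15.5%). Cdc25b was at 50.3, 56.1 and 116 in DOX+IL-17A and 101, 160.5 and 193 in IL-17A replicates 2, 3 and 5. Replicate 5 was the highest in both groups, so the groups overlapped, and it fell by 1.08 ± 0.31 on the log2 scale (adjusted p = 0.0342). Scaled by library size alone the difference was -0.86 (adjusted p = 0.0750), and without the 3 libraries -1.25 (adjusted p = 0.00106). The call was lost without DOX+IL-17A replicate 2 (adjusted p = 0.135) or 3 (0.127) and without IL-17A replicate 3 (0.113) or 5 (0.126).

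Aurka was at 126, 111 and 88.3 in DOX+IL-17A and 52.2, 60.2 and 68.3 in IL-17A, with no overlap, and rose by 0.83 ± 0.25 (adjusted p = 0.0378). The adjusted p was under 0.05 in only 4 of the 13 fits that left out 1 library and in 15 of all 24 alternatives (highest 0.125). Without the 3 libraries, in the fit whose spread is smaller by construction, it rose by 1.06 (adjusted p = 0.00071 by limma) and was called. Ttk, at 113, 167 and 163 against 64.5, 93.7 and 153, had 0.57 ± 0.33 (adjusted p = 0.265), and 0.81 (adjusted p = 0.0208) without the 3 libraries. Mad2l1, at 58.01, 64.1 and 32.7 in IL-17A, had 0.56 ± 0.35 (adjusted p = 0.321). Kif20a, at 11.2, 28.2 and 24.6 against 8.34, 13.8 and 21.2, had 0.53 ± 0.37 and Bub1b, at 51.1, 69.8 and 38.2 against 78.9, 79.2 and 60.3, -0.48 ± 0.24. Neither passed, and their groups overlapped. Birc5, at 409.7, 393 and 328 in IL-17A, had 0.19 ± 0.23 (adjusted p = 0.650) and its 3 IL-17A values were all below the 4 DOX values.

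**Figure D5:**
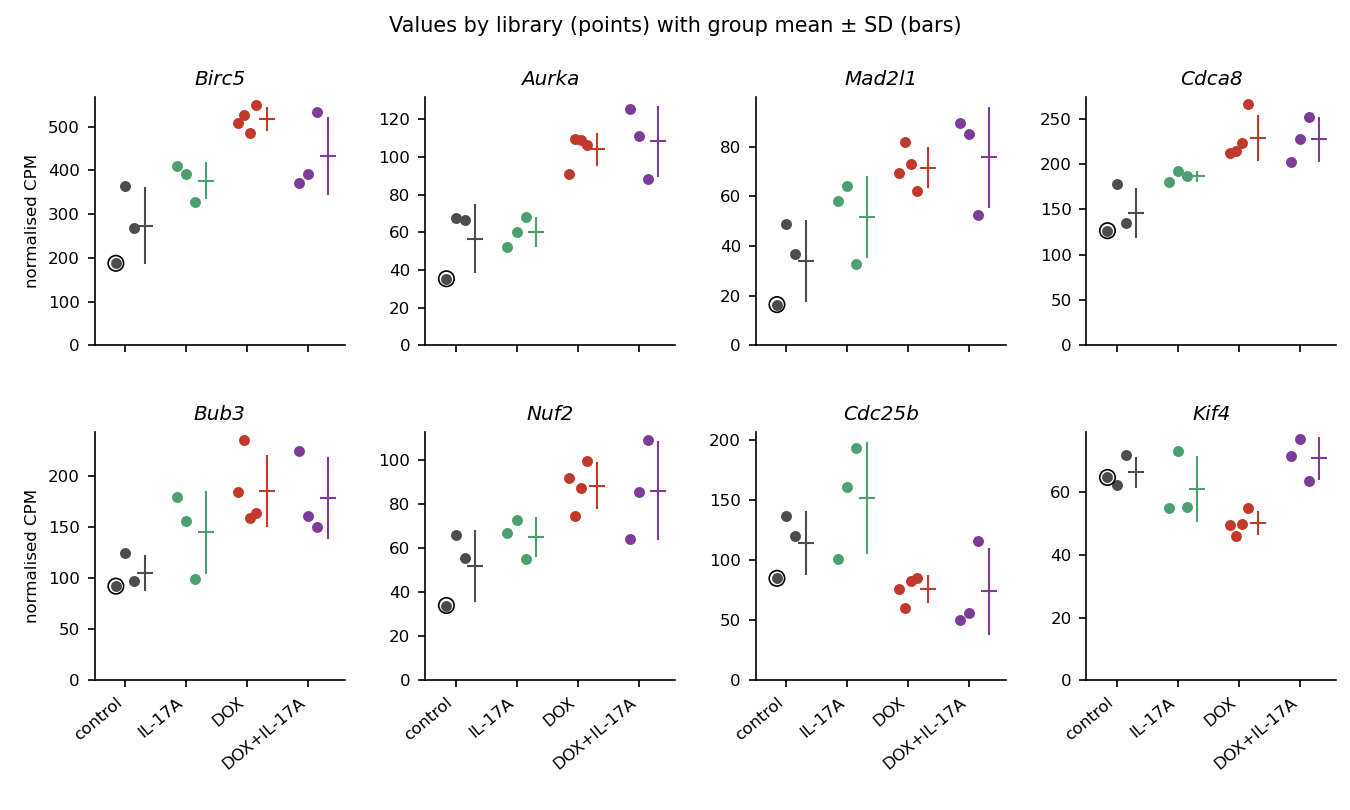
Normalised CPM (y axis) of 8 members in every library (points) by group (x axis), with group mean ± SD (bars) and control replicate 1 circled. Birc5, Aurka, Mad2l1, Cdca8, Bub3 and Nuf2 lie higher in DOX (red) than in control (grey) with no overlap, Cdc25b lies lower, and Kif4 is lower in DOX than in DOX+IL-17A (purple).

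DOX+IL-17A against DOX asks whether the cytokine changed these genes in cells given the drug. No member was called by limma, voom, edgeR or DESeq2 (0 of 40, background 0.438% in both directions by limma). At an unadjusted p under 0.05 there was 1 member by each of the 4 (background 6.35% by limma), Kif4 by limma. The median was -0.05 against -0.03 over all genes. Kif4 was at 71.8, 77.2 and 63.7 in DOX+IL-17A and 49.7, 46.1, 50.1 and 55.1 in DOX. It was the 1 member whose DOX+IL-17A libraries all lay above the DOX libraries (background 4.66%), and none lay wholly below (5.61%). Its difference was 0.49 ± 0.18 (adjusted p = 0.571), and 0.56 (adjusted p = 0.127) without the 3 libraries. The other large differences were -0.36 ± 0.34 for Kif20a, -0.30 ± 0.28 for Spc24, at 44.4, 74.2 and 102 in DOX+IL-17A, -0.29 ± 0.21 for Ndc80, at 105, 127 and 195, -0.28 ± 0.22 for Birc5 and 0.25 ± 0.29 for Cdc20, at 135, 85.996 and 108. All had overlapping groups and adjusted p-values of 0.980 or more. For Mad2l1 the difference was 0.05 ± 0.33, for Aurka 0.05 ± 0.23 and for Cdca8 -0.01 ± 0.18, each within 1 standard error of 0.

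IL-17A against control gave no called member by any of the 4 tools (0 of 40, background 0.00812% by limma). At an unadjusted p under 0.05 there was 1 by limma (Birc5) and 1 by voom, and 0 by edgeR and DESeq2 (background 3.08% by limma). Values were higher for 30 members and lower for 10, with a median of 0.15 against 0.02, and without control replicate 1 there were 18 higher and 22 lower with a median of -0.04. Cdca8, at 180.004, 192 and 187 in IL-17A, was the 1 member wholly above the controls (background 3.17%), and none was wholly below (2.87%). Its difference was 0.36 ± 0.19 (adjusted p = 0.959). The largest differences followed control replicate 1: 1.05 ± 0.72 for Cenpa, 1.0 ± 0.76 for Aurkb, at 34.6, 37.7 and 12.5, and 0.67 ± 0.38 for Kif23, at 226, 268 and 216. They were -0.17, -0.10 and 0.0 without that library. Mad2l1 (0.66 ± 0.35), Ccna2 (0.55 ± 0.40, at 122, 165 and 78.7) and Birc5 (0.50 ± 0.23) also did not pass.

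The interaction, which asks whether IL-17A moved a gene differently in cells given DOX than in cells not given it, was called by adjusted p for 0 of 40 members by limma, voom, edgeR and DESeq2 (background 0% of 12319 genes by limma, and 18 genes by DESeq2). At an unadjusted p under 0.05 there were 2 members by each of the 4 (background 4.51% by limma), Birc5 and Kif4 by limma. The largest were -1.13 ± 0.99 for Cenpa, -1.03 ± 1.04 for Aurkb, -0.78 ± 0.32 for Birc5, -0.66 ± 0.57 for Cdk1, at 411, 386 and 126 in IL-17A, 0.61 ± 0.27 for Kif4, at 54.97, 73.3 and 55.2 in IL-17A, and -0.61 ± 0.48 for Mad2l1. Without control replicate 1 Cenpa had 0.09 and Aurkb 0.07, while Birc5 kept -0.53 and Kif4 0.63.

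Genes that work beside the 40 were counted in DOX against control from lists that share no gene with them. These counts stand against 9.15% of all tested genes called up and 6.18% down (1127 and 761 of 12319), and 958 up and 749 down without control replicate 1. At the kinetochore, 7 of 20 inner genes were called up and 0 down, led by Mis18a, which helps load Cenpa (2.11 ± 0.73), Cenpu (1.67 ± 0.35), Cenpo (1.47 ± 0.48) and Cenpw (1.26 ± 0.36), and without control replicate 1 the count was 3 up. Of 19 outer kinetochore and checkpoint genes 4 were called up and 0 down, and 7 up without control replicate 1. They were Nsl1 of the Mis12 complex (1.99 ± 0.41), Haspin, the histone kinase that recruits the passenger complex (1.78 ± 0.28), Mad2l1bp, the p31comet protein that silences Mad2 (1.34 ± 0.29), and Ska3 (1.24 ± 0.35). Mad2l1bp was at 13.3 ± 5.93 (SD, n = 3) in control and 33.2 ± 3.80 (SD, n = 4) in DOX.

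Among 17 regulators of entry and exit 1 rose, Cdc25a, a Cdk-activating phosphatase (1.0 ± 0.21), and 1 fell, Wee1, the kinase that opposes it (-1.08 ± 0.30), and without control replicate 1 there were 2 up and 0 down. In condensin and cohesin, 1 of 18 rose, separase Espl1 (1.12 ± 0.28), and 2 fell, the alternative cohesin subunits Stag1 (-2.17 ± 0.25) and Stag2 (-1.20 ± 0.19), and without that library there were 0 up and 3 down. Of 29 other spindle genes 3 rose, Fam83d (1.41 ± 0.47), Haus3 (1.04 ± 0.21) and Haus6 (1.01 ± 0.30), and 2 rose and 1 fell without it. Of 15 anaphase-promoting complex genes 1 rose, Anapc16 (1.28 ± 0.34), and none was called without control replicate 1. Of 15 other cytokinesis genes 2 fell, the non-muscle myosins Myh9 (-1.23 ± 0.23) and Myh10 (-1.02 ± 0.19), and without that library none was called. Among 11 MuvB and DREAM genes Rbl1, p107, fell (-1.18 ± 0.26), and without control replicate 1 there were 1 up and 1 down. None of 11 centrosome duplication genes was called, and 1 without that library, the largest differences being -0.83 ± 0.26 for Cdk5rap2 and 0.75 ± 0.23 for Sass6.

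Upstream of mitosis more was called. Of 32 replication licensing and S phase genes 13 rose and 1 fell (background 9.15% and 6.18%), with a median of 0.72 against 0.09 over all genes, and 13 rose and 0 fell without control replicate 1. Orc6 of the origin recognition complex (2.10 ± 0.36), Cdc6, which loads the replicative helicase (1.99 ± 0.21), the flap nuclease Fen1 (1.90 ± 0.41) and Gins3 (1.56 ± 0.39) led. Of 18 G1 cyclins, kinases and inhibitors 2 rose, the E cyclins Ccne1 (1.43 ± 0.38) and Ccne2 (1.28 ± 0.40), and 1 fell, the inhibitor Cdkn2c (-1.71 ± 0.36), and 3 rose and 2 fell without control replicate 1. The mitotic members, at 1 of 40 called, stood beside 13 of 32 for replication. Whether the lists differ was not tested.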

How the data were processed

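The authors prepared QuantSeq 3′ libraries from the 4T1-Thy1.1 line, sequenced single 75 base reads, trimmed them with Trimmomatic, aligned them to mm10 with STAR, counted them per gene with featureCounts and scaled them by TMM. The deposited values are this normalised signal, in TMM-scaled CPM. All values (100%) were whole reads within 0.02 of a read, so read counts were recovered from them. The deposited table held values of the 13 libraries only, and 1 entry with a repeated name was dropped.

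Differences were fitted with limma 3.58.1 (trend) on log2(value + 1) with group as the only term over 13 libraries (9 residual degrees of freedom), after edgeR's filter left 12319 genes. The threshold for a call was a change above 2-fold together with an adjusted p below 0.05, and for the interaction the adjusted p alone. The alternatives were voom, edgeR 4.0.16 and DESeq2 1.42.0 on the recovered reads, library size scaling, other filters, pseudocount 0.1, a replicate term, only the groups compared, each library left out, and 2 joint sets of libraries left out that were chosen after seeing the data. In R 4.3.3, limma was run on simulated data with 200 genes changed 4-fold in the DOX group alone. That run does not bear on smaller differences, such as those of most members. The 40 members and the other gene lists were chosen with earlier results of these data known. Values per library are given for the 6 members with the largest differences in each comparison and the highest member of each role, and Incenp, Cdca8 and Nuf2 were added after their values were seen. Up to 4 called genes of each other list are named, or 2 where none was called.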

Additional observations from a re-analysis of the deposited data

Results flagged for a closer look

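In the DOX group, the only one of 4 libraries, the 40 members and the marker sums were examined for a value far from the other 3 (47 values, by Dixon's 95% limit). Chance flags about 1 in 20 such groups. Of the members, Aurka was flagged, at 91.1 in DOX replicate 1 against 107, 109 and 109.7 in the others, a gap of 0.832 of the range. The same library had the summed skeletal muscle markers at 269, against 4.65, 5.87 and 29.9 in the other DOX libraries, and the summed red blood cell markers at 66.5, against 1.34, 3.91 and 5.47. With control replicate 1 and DOX replicate 1 both left out, Aurka had an adjusted p of 0.0333 in DOX against control by limma, at a log2 difference of 0.68.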

How the results depend on the processing

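In DOX against control, members called numbered 1 by voom, edgeR and DESeq2, 3 with scaling by library size only, 2 in the fit of only the groups compared, and 6 by adjusted p alone. Leaving out 1 library at a time gave 0 to 8. In DOX+IL-17A against control the counts were 2 with library size scaling, 0 in the fit of only the groups compared and 4 by adjusted p alone, and 0 to 3 with 1 library left out. In DOX+IL-17A against IL-17A they were 0 in the fit of only the groups compared and 2 by adjusted p alone, and 0 to 1 with 1 library left out. With library size scaling the count there was 1, as in the main fit, but that member was called up and Cdc25b was not called. Without control replicate 1 and DOX replicate 1 together both comparisons with control gave 0. Without control replicate 1, IL-17A replicate 5 and DOX+IL-17A replicate 5 together the counts were 0 in DOX against control, 2 in DOX+IL-17A against control and 2 in DOX+IL-17A against IL-17A. The other 3 comparisons gave 0 in every alternative. The median of the members in DOX against control ran from 0.11 to 0.51. The causes of these shifts were not tested.

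With a replicate block, members called were 1 in DOX against control (3 by adjusted p alone), 0 in DOX+IL-17A against control (0 by adjusted p alone, against 4 without the block), where Mad2l1 had 0.93 (adjusted p = 0.0665 by limma), and 1 in DOX+IL-17A against IL-17A (2 by adjusted p alone), and it changed no other call. Libraries with the same number did not all deviate together: over 13 same-number pairs of libraries from different groups the correlation of deviations over all tested genes ran from -0.18 to 0.49 (mean 0.15), against a mean of -0.04 for other pairs. Over the 40 members it ran from -0.45 to 0.76 (mean 0.25), against a mean of -0.06. Some same-number pairs were thus below 0.1 either way, and the labels tie the numbers to no culture or batch. In DOX against control the differences of Cenpa and Aurkb, above 2-fold with all libraries, did not pass. Without control replicate 1 they were 0.19 and 0.29 on the log2 scale. The groups held 3 or 4 libraries, and the size of difference that could be found with them was not tested.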
